A study of Emberiza melanocephala with 12 samples.

Results

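The genes described here were above the detection level in the liver of blackheaded buntings (Emberiza melanocephala) in one seasonal state and mostly not in the other. A gene counted as detected in a library when its value exceeded 0.1 FPKM (a density of sequenced fragments, scaled by transcript length and by the mapped reads of the library), the level at which the study called a gene expressed. A member had to be detected in 5 or more of the 6 libraries of one state and in 2 or fewer of the 6 of the other. Of 18284 genes in the deposited table, 175 met this, 96 detected in the migratory (M) state only and 79 in the non-migratory (nM) state only. The same values chose the members, so all values that set M beside nM below are a description and were not tested.

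The 12 libraries came from livers of adult male buntings caught in the wild, with a single bird of each state sampled at 1, 5, 9, 13, 17 or 21 h from the start of light (ZT1 to ZT21, hereafter in that order). The 6 M birds (labelled LDM) were photosensitive birds moved out of short days and photostimulated by long days until they showed Zugunruhe, the nocturnal restlessness of caged migrants. The 6 nM birds (labelled LDR) had become photorefractory under prolonged long days and stayed on them. Both states were therefore on 16 h of light when sampled, and differed in photoperiodic history and physiological state together, while time of day and the individual bird cannot be told apart within a state.

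The liver stores, converts and exports fuel, and in migratory birds it takes up and packages lipid before flight. Most RNA of this tissue comes from hepatocytes, which make the plasma proteins, and genes typical of nerve, gut, muscle or ciliated cells are expected near the lower limit of a liver library, if at all. In RNA of whole tissue, fewer cells of a type and less RNA per cell cannot be told apart. A gene close to that limit can be listed at 0 in one library and above the limit in the next, which is why the value in each library is given for the members that follow.

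Of the 8 hepatocyte markers that could be matched, 7 exceeded 0.1 FPKM in all 12 libraries. The sum over the 8 was 17115 to 52396 FPKM in the M libraries and 29299 to 119256 FPKM in the nM libraries. Single markers went either way by median, HNF4A-1, FGB and F2 higher in M and ALB, FGG, AHSG, TTR-1 and APOB higher in nM. TTR-1 alone had a median of 65.1 FPKM over the M libraries and 13234 FPKM over the nM libraries. The sum is therefore not read as an amount of hepatocyte RNA. One library, M at ZT17, stood apart from the other 11 in its FPKM values. It had 9533 genes above 0.1 FPKM (10111 to 10737 elsewhere), a total FPKM of 6.99 (1.52 to 2.79 elsewhere, in 1e6 FPKM), and ranks that correlated less with those of other libraries (median 0.877, at least 0.928 elsewhere). In the study's read table, the M library of ZT9 had by far the lowest share of high-quality bases. Its part in the counts of genes below was not tested. The deposited files hold no read counts, so no counting interval can be given. A value of 0 was also not evidence of absence, since among 5139 genes whose median exceeded 10 FPKM there were 121 with a 0 somewhere. ALB, the gene of serum albumin, was listed at 0 in the M libraries of ZT1, ZT5 and ZT9 and in the nM library of ZT5, and stood between 17300.2 and 39835 FPKM in the other 8.

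Genes that met the rule were few, and most of them were also detected in 1 or 2 libraries of the other state. The 96 M-only genes were 0.525% of the table and the 79 nM-only genes 0.432%. By comparison 8388 genes exceeded 0.1 FPKM in all 12 libraries and 6022 in none. A filter of detection in 10 of 12 libraries, which kept 9566 genes, excludes all 175 members by construction, since none was detected in more than 8 libraries. All 175 were nevertheless among the 11246 genes of the deposited log2 table.

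**Figure D1:**
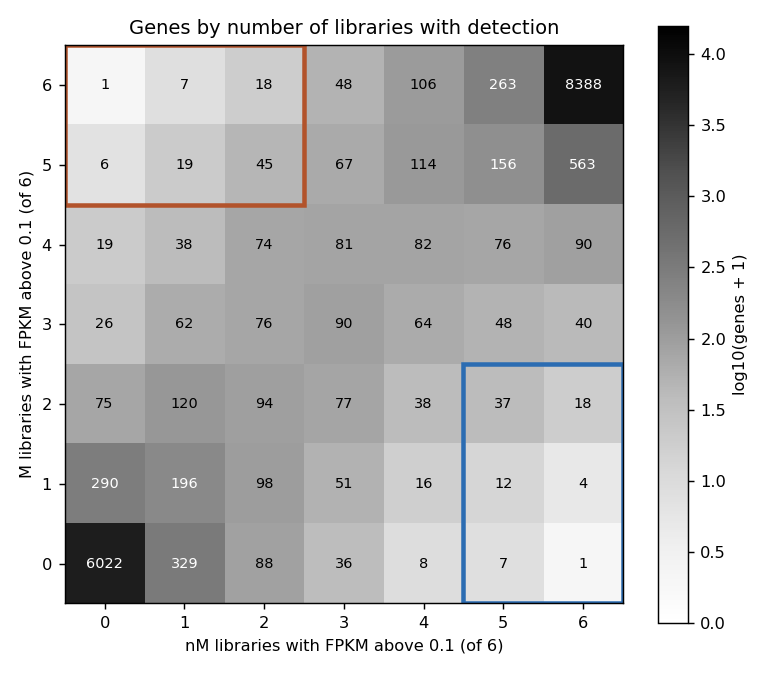
Number of genes by the number of M libraries (vertical axis) and nM libraries (horizontal axis) in which FPKM exceeded 0.1, with shading on a log10 scale. The 96 M-only genes lie in the orange frame and the 79 nM-only genes in the blue frame, most of them in the cells that touch the edge of the rule.

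Most members sat at the edge of the rule. Of the 96 M-only genes, 26 were detected in all 6 M libraries, and 63 were detected in 2 nM libraries, 26 in 1 and 7 in none. Of the 79 nM-only genes, 23 were detected in all 6 nM libraries, and 55 were detected in 2 M libraries, 16 in 1 and 8 in none. A full contrast, 6 libraries against 0, was met by 1 gene in each direction, ENSTGUG00000008642 for M and ADAMTS12 for nM. Every M library lay above every nM library in 3 of the 96 M-only genes (CACNA1B, ENSTGUG00000008642 and ENSTGUG00000009325), where 0.72% of the genes of the log2 table do so. Every M library lay below every nM library in 6 of the 79 nM-only genes (SCARNA15, SYT13, KCNQ5, ADAMTS12, ENSTGUG00000005701 and ENSTGUG00000013626), where 2.95% of the genes of the log2 table do so. The rule itself favours such genes, and nothing is read from these counts.

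The zeros were not evenly shared between the directions. For the M-only genes, 383 of the 576 nM values (66.5%) were listed at 0, 41 (7.12%) lay above 0 and up to 0.1 FPKM and 152 (26.4%) exceeded 0.1 FPKM. For the nM-only genes, 231 of the 474 M values (48.7%) were listed at 0, 117 (24.7%) lay above 0 and up to 0.1 FPKM and 126 (26.6%) exceeded 0.1 FPKM. Over the whole table, 7260 to 8675 genes were listed at 0 in an M library and 6957 to 8089 in an nM library. The nM libraries of ZT9, ZT13, ZT17 and ZT21 had the fewest reads of all in the study's read table. They listed 60, 78, 72 and 74 M-only genes at 0, against 62 and 37 in those of ZT1 and ZT5. The part of depth in these zeros was not tested. Genes listed at 0 in every library of the other state numbered 4 among the M-only genes (SNORD16, CDX2, ENSTGUG00000008642 and ENSTGUG00000000569, the last pair named after their values were seen) and 2 among the nM-only genes (ELAVL4 and PGR). In the other direction, 44 nM values of M-only genes and 14 M values of nM-only genes exceeded 1 FPKM, so detection in the other state was at times at a higher level than most members reached in their own.

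The members were mostly weakly expressed. The median over the 96 M-only genes of their median FPKM in the M libraries was 0.450 (range 0.125 to 3323), and that over the 79 nM-only genes in the nM libraries was 0.338 (range 0.111 to 66.3). Over all 9801 genes detected in 5 or more M libraries the median was 10.6 FPKM, and over the 9703 detected in 5 or more nM libraries it was 12.1 FPKM. A level of at most 0.5 FPKM was found for 52 of the 96 M-only genes (54.2%), against 5.15% of the genes detected in 5 or more M libraries. It was found for 50 of the 79 nM-only genes (63.3%), against 4.57% of the genes detected in 5 or more nM libraries. At the other end, 5 M-only genes (ENSTGUG00000018739, ENSTGUG00000006203, ENSTGUG00000017887, SNORD16 and ENSTGUG00000000149) and 2 nM-only genes (SCARNA15 and SNORA63) had a median above 10 FPKM in their state.

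**Figure D2:**
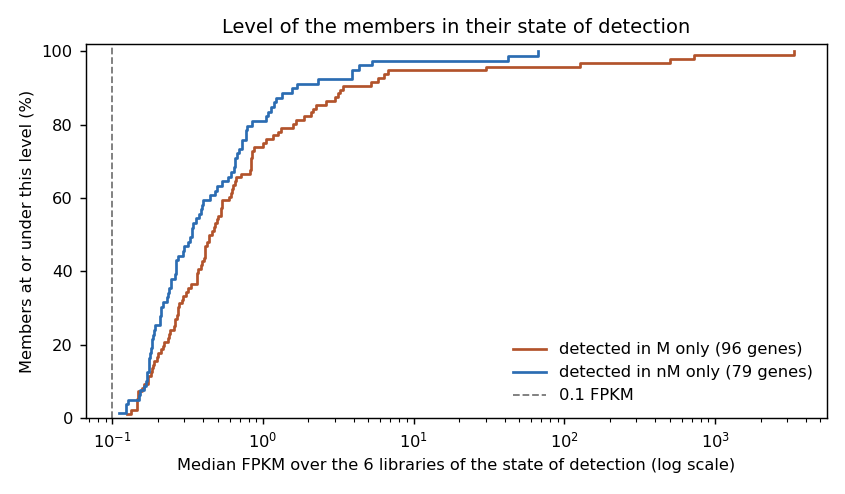
Cumulative share of members (vertical axis, %) by their median FPKM over the 6 libraries of the state of detection (horizontal axis, log scale), for the 96 M-only and 79 nM-only genes. Both curves climb steeply from the dashed 0.1 FPKM line, with medians of 0.450 and 0.338 FPKM, and the M-only curve has a tail up to 3323 FPKM.

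On the scale of log2(FPKM + 1), the difference of state means, M minus nM, had a median of 0.44 over the M-only genes (lowest -0.11, highest 6.40) and of -0.31 over the nM-only genes (lowest -4.84, highest 0.06). Over all genes detected in 5 or more M libraries that median was -0.05, and over those detected in 5 or more nM libraries it was -0.11. The difference was above 0 in 93 of the 96 M-only genes and in 1 of the 79 nM-only genes, a direction that the rule largely fixes.

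The share of members detected varied between libraries of one state. M-only genes above 0.1 FPKM numbered 83, 90, 90, 85, 76 and 82 in the M libraries in order of time, and 29, 45, 29, 15, 17 and 17 in the nM libraries. The nM library of ZT5 thus held the most M-only genes of its state and that of ZT13 the fewest, and these were also the nM libraries with the most and the fewest reads in the study's read table and with the most (10737) and the fewest (10111) genes above 0.1 FPKM. The nM-only genes above 0.1 FPKM numbered 34, 8, 34, 22, 10 and 18 in the M libraries and 67, 73, 77, 61, 72 and 68 in the nM libraries. Among the M libraries the one with the most reads, that of ZT5, held the fewest nM-only genes. The part of sequencing depth in these counts was not tested.

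**Figure D3:**
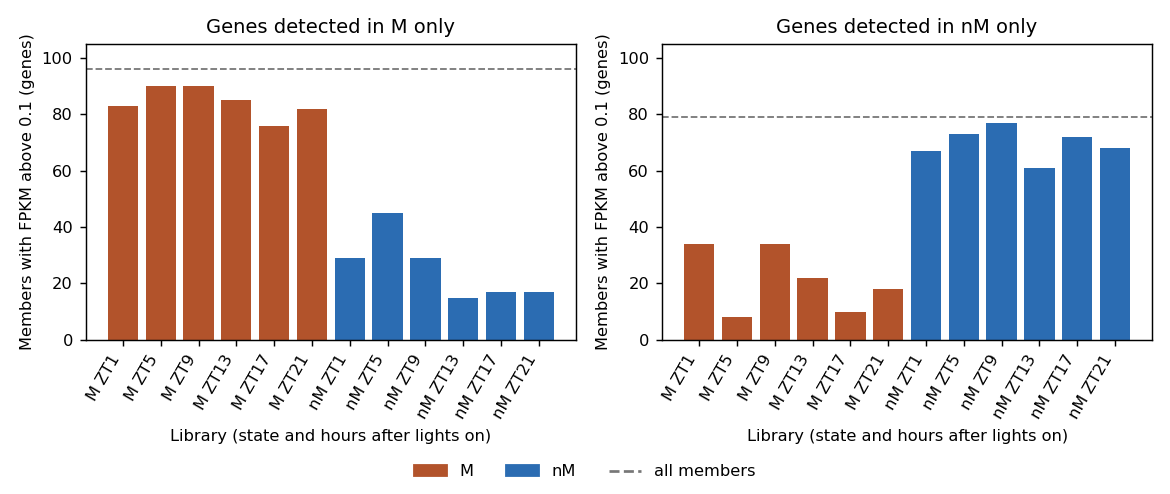
Number of members above 0.1 FPKM in each library (vertical axis, genes), M libraries in orange to the left of nM libraries in blue, with the dashed line at the 96 M-only (left panel) and 79 nM-only (right panel) genes. M-only genes range from 15 to 45 over the nM libraries, and nM-only genes from 8 to 34 over the M libraries.

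Both directions were touched by the M library of ZT17. It held the highest M value of 59 of the 96 M-only genes and listed another 20 of them at 0. The median over the M-only genes was 1.06 FPKM in this library and 0.305 to 0.532 FPKM in the other 5 M libraries. It listed 66 of the 79 nM-only genes at 0, against 21 to 43 in the other M libraries. Without it, and with 1 missing M library still allowed, 164 genes were M-only and 95 nM-only. By construction these hold all 96 and all 79 members. With detection required in all 5 remaining M libraries the M-only genes numbered 46, by construction all of them members. Of the 18 with a symbol, 10 were among the 46 (VAMP2, FKBP6, LYSMD4, ZNF503, ZMAT4, RASL12, CDX2, TMEM200A, ZNF385C and IL8-2). With another M library left out in its place, 32 to 40 M-only genes remained under this requirement. The part of this library in the M-only genes beyond these counts was not tested.

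Other libraries moved the counts as well. A left-out library can only add members when 1 missing library is still allowed. The M-only count of 96 then exceeded 1.5 times its value without the M libraries of ZT1 (153), ZT17 (164) and ZT21 (148), and without the nM libraries of ZT1 (176), ZT5 (178), ZT9 (154) and ZT17 (149). The nM-only count of 79 did so without the M libraries of ZT1 (143), ZT9 (136), ZT13 (121) and ZT21 (128).

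Gene symbols came from the study's own lists of differential and cyclic genes, which name 4651 genes of the table. Each member with a symbol is therefore a gene that the study picked on these libraries. Of the 96 M-only genes 18 had a symbol (18.8%), against 42.3% of the other genes detected in 5 or more M libraries. Of the 79 nM-only genes 36 had one (45.6%), against 42.7% of the other genes detected in 5 or more nM libraries. The values that follow are in order of time, ZT1 to ZT21.

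The highest M-only levels belonged to genes without a symbol. ENSTGUG00000018739 had 1479.5, 37941, 0.000142, 3979, 32582 and 2667 FPKM in the M libraries, against 10585 and 5160.3 FPKM in the nM libraries of ZT5 and ZT21 and less than 0.1 FPKM in the other 4. The nM value at ZT5 exceeded 4 of the 6 M values, so the states overlapped. ENSTGUG00000006203 had 890.2, 1869, 487, 562, 1392 and 376 FPKM in the M libraries and 1046, 827, 0, 0, 0 and 0 FPKM in the nM libraries. The nM libraries of ZT1 and ZT5 lay in the M range and the other 4 were listed at 0. The only gene above 0.1 FPKM in all 6 M libraries and listed at 0 in all 6 nM libraries, ENSTGUG00000008642, had 0.315, 0.629, 0.712, 0.421, 2.32 and 0.345 FPKM in the M libraries. Its highest value was in the library of ZT17, and it is named after its values were seen.

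Small RNAs of the nucleolus and the Cajal body were among the highest named members in both directions. They guide chemical modification of ribosomal and spliceosomal RNA, box C/D RNAs guiding methylation and box H/ACA RNAs pseudouridylation. The libraries were made from poly(A)-selected RNA, and FPKM divides by a short length here, so the levels of these RNAs are uncertain. SNORD16, a box C/D RNA, had 84.7, 0, 278, 112, 314 and 141 FPKM in the M libraries and was listed at 0 in all 6 nM libraries. It was also listed at 0 in the M library of ZT5, so the states met at 0. The paper's results place SNORD16 among genes upregulated in the nM state, the opposite direction to these values. They name SCARNA15 and a gene written SNORNA81 beside it. SCARNA15 and SNORA81, given below, were higher in nM by median, the paper's direction. The paper's discussion mentions downregulation of such genes in connection with the nM state. SCARNA15, a Cajal body RNA, had 0, 15.3, 22.2, 0, 0 and 0 FPKM in the M libraries against 82.9, 35.3, 48.5, 158, 172 and 49.6 FPKM in the nM libraries, a difference of -4.84 on the log2(FPKM + 1) scale. The lowest nM value exceeded the highest M value. SNORA63, a box H/ACA RNA, had 9.12, 0, 35.7, 0, 0 and 0 FPKM in the M libraries and 33.9, 44.9, 40.3, 43.6, 85.4 and 20.7 FPKM in the nM libraries (log2 difference -3.97). At ZT9 the M value lay within the nM range. Of the 59 small RNA names listed, 4 were matched to the table, and 3 of these were members. Over all genes 0.525% were M-only and 0.432% nM-only. A name could be matched only if the study had listed the gene. The 3 members took their symbols from its list of differences between these states, so nothing is read from this share. The one that was not, SNORA81, had a median of 5.42 FPKM over the M libraries and 84.8 FPKM over the nM libraries, with detection in 3 M and 6 nM libraries.

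Secreted signals were represented by 2 M-only genes. IL8-2, an interleukin 8 gene whose product draws heterophils to sites of inflammation, had 3.47, 3.67, 1.24, 1.44, 0 and 1.87 FPKM in the M libraries and 0, 4.03, 0, 0, 5.49 and 0 FPKM in the nM libraries. Both nM libraries with a value exceeded all 6 M libraries, so this member was M-only by frequency of detection and not by level. WNT7A, a Wnt ligand, had 0.288, 0.335, 0.103, 0, 0.727 and 0.147 FPKM in the M libraries and 0.161, 0.46, 0, 0, 0 and 0 FPKM in the nM libraries. Its nM value at ZT5 was higher than all M values but that of ZT17. The other 18 matched genes of cytokines, chemokines and growth factors were not members. Of the 106 names listed 20 were matched, all through the study's own lists, and 0.525% of all genes were M-only. Nothing is read from this count of 2.

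A homeobox factor and zinc finger genes were among the named M-only genes. The nM-only genes held a nuclear receptor (PGR) and a zinc finger homeobox factor (ZFHX4), both named below. CDX2, the homeobox factor that specifies intestinal epithelium, had 0.43, 0.305, 0.424, 0.225, 0 and 0.737 FPKM in the M libraries and was listed at 0 in all 6 nM libraries. It was at 0 in the M library of ZT17 too, so the states met at 0 there. The other matched intestine marker, CDH17, an intestinal cadherin, did not follow it, with a median of 1.01 FPKM over the M libraries and 1.73 FPKM over the nM libraries. Summed, both markers gave 0 to 1.95 FPKM in the M libraries and 0.664 to 2.21 FPKM in the nM libraries. ZNF503, a zinc finger repressor of transcription, had 0.272, 0.548, 0.434, 0.825, 0.891 and 0.214 FPKM in the M libraries and 0.254, 0.182, 0, 0, 0 and 0 FPKM in the nM libraries. The nM library of ZT1 lay at the lower end of the M range, that of ZT5 below it, and the other 4 were listed at 0. The zinc finger gene ZMAT4 had 0.346, 0.132, 0.526, 0.429, 0.531 and 0.381 FPKM in the M libraries and 0, 0.573, 0.231, 0, 0 and 0 FPKM in the nM libraries. Its highest value of all was in the nM library of ZT5. ZNF385C, another zinc finger gene, had 0.142 to 0.338 FPKM in 5 M libraries, was listed at 0 in that of ZT17, and had 0.210 FPKM in the nM library of ZT1 with the other 5 at 0.

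Other named M-only genes are known from vesicle fusion, muscle or germ cells. VAMP2, a SNARE protein of vesicle fusion, had 0.732, 1.86, 1.49, 1.15, 3.98 and 1.11 FPKM in the M libraries against 0, 1.55, 0.31, 0, 0 and 0 FPKM in the nM libraries (log2 difference 1.06). One nM value, at ZT5, lay inside the M range and 4 nM libraries were listed at 0. MYL3, a myosin light chain of slow and cardiac muscle, had 0, 0.744, 1.59, 2.19, 4.29 and 0.441 FPKM in the M libraries and 0, 0.449, 0, 7.14, 0 and 0 FPKM in the nM libraries. Its highest value was in the nM library of ZT13. The 2 matched muscle markers, DES and TNNT3, were not members, and their sum was 16.7 to 162 FPKM in the M libraries and 12.6 to 448 FPKM in the nM libraries. FKBP6, an immunophilin that mouse male germ cells need for meiosis, had 0.549, 0.66, 0.99, 0.483, 0.764 and 0.896 FPKM in the M libraries and 0, 0.0987, 0, 0, 0.583 and 0.453 FPKM in the nM libraries. The nM value at ZT17 lay inside the M range and the other 5 below it. TMPRSS12, a serine protease known from mouse testis, had 0.0292, 0.266, 0.166, 0.405, 9.5 and 0.253 FPKM in the M libraries and 0, 0.479, 0, 0.131, 0.0204 and 0.0127 FPKM in the nM libraries. Outside ZT17 the M values did not exceed the highest nM value.

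The remaining M-only genes with a symbol have varied products. ARSD-2, an arylsulfatase gene, had 0.0744, 1.22, 0.375, 0.50, 0.829 and 0.273 FPKM in the M libraries and 0.115, 0.554, 0.0713, 0, 0 and 0 FPKM in the nM libraries. At ZT1 the M value fell below 0.1 FPKM and below 2 of the nM values. LYSMD4, whose protein carries a LysM domain, had 0.135, 0.316, 0.735, 1.41, 2.49 and 0.335 FPKM in the M libraries and 0, 0, 0, 0, 0.245 and 0.781 FPKM in the nM libraries. Here the 2 nM values lay inside the M range. CACNA1B, the pore subunit of the N-type calcium channel of nerve endings, had 0.072, 0.176, 0.166, 0.119, 0.201 and 0.127 FPKM in the M libraries and 0, 0.0597, 0.0365, 0, 0 and 0 FPKM in the nM libraries. All M values exceeded all nM values, by as little as the step between 0.0720 and 0.0597 FPKM. RASL12, a small GTPase of the Ras family, stood at 0.172 to 0.332 FPKM in 5 M libraries and 1.53 FPKM in that of ZT17, with 0.808 and 0.358 FPKM in the nM libraries of ZT5 and ZT17. TMEM200A, a transmembrane protein gene, stood at 0.141 to 0.359 FPKM in 5 M libraries and at 0 in that of ZT17, and its only nM value above 0 was 0.0526 FPKM at ZT5. GDPD4, a glycerophosphodiesterase family gene, stood at 0.107 to 0.349 FPKM in 5 M libraries and at 0 in that of ZT5, with 0.263 FPKM in the nM library of ZT21. DNAI1, an intermediate chain of the dynein of cilia, had 0.179, 0.139, 0.12, 0.152, 0.194 and 0.063 FPKM in the M libraries and 0, 0, 0.294, 0.372, 0.0946 and 0.0515 FPKM in the nM libraries. The difference of state means was 0.02 on the log2 scale, and the highest values, at ZT9 and ZT13, were those of nM libraries. RASL12, TMEM200A, GDPD4, DNAI1, ZNF385C and TMPRSS12 are given to complete the 18 and were named after their values were seen.

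**Figure D4:**
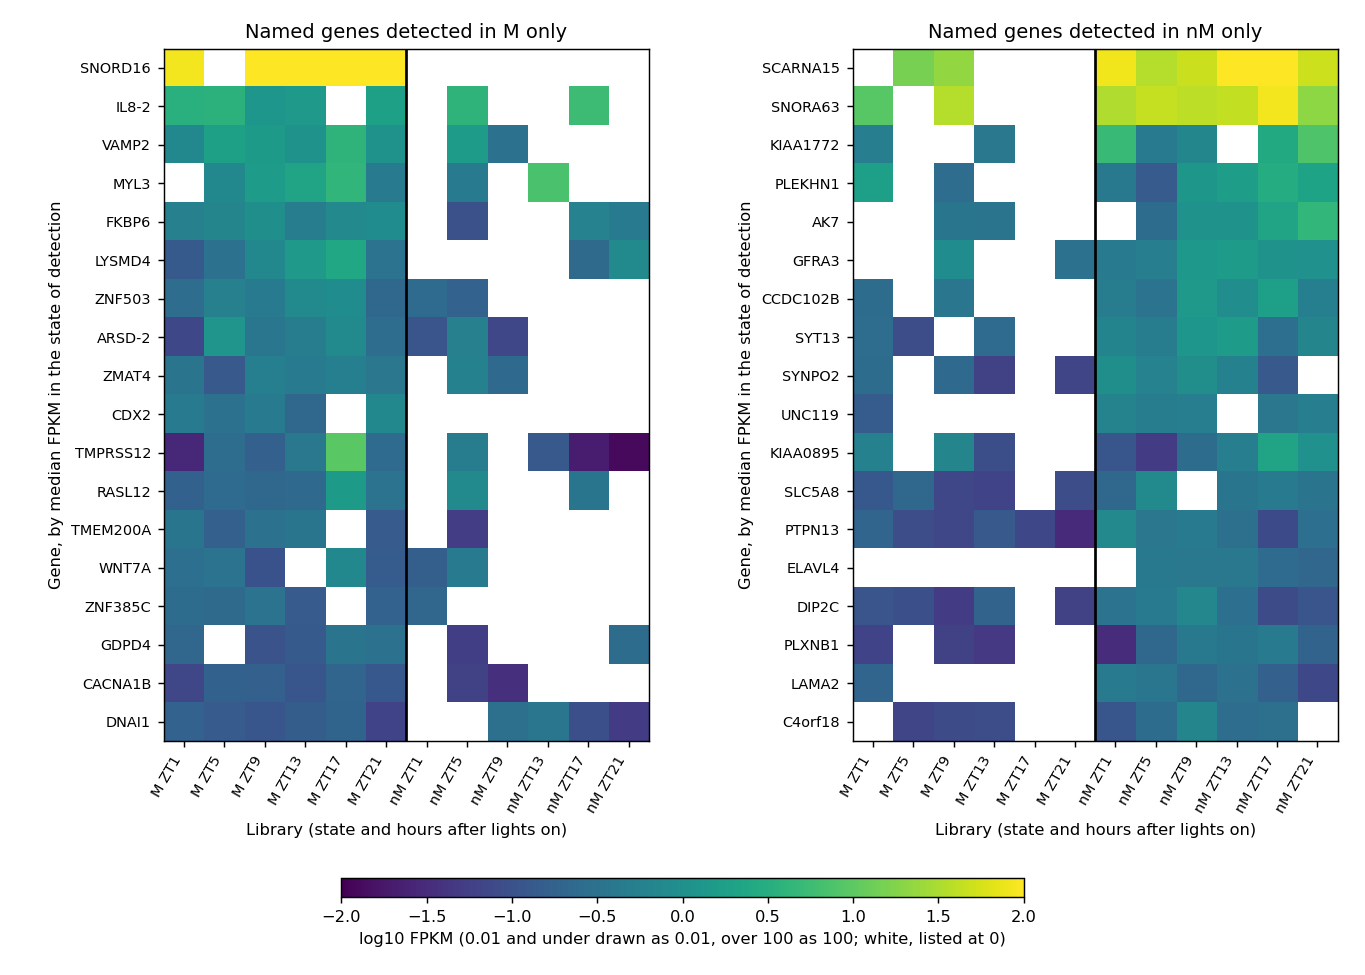
FPKM of the 18 M-only genes with a symbol (left) and of the 18 nM-only genes with a symbol and the highest median (right), as color on a log10 scale, in each M library (left of the black line) and nM library (right of it), genes ordered by median level. White cells are listed at 0, and except for the small RNAs SNORD16, SCARNA15 and SNORA63 most values lie below 10 FPKM.

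On the nM side, several named members encode receptors and surface proteins. GFRA3, the co-receptor that binds the neurotrophic ligand artemin, had 0, 0, 0.877, 0, 0 and 0.326 FPKM in the M libraries and 0.442, 0.518, 1.38, 1.62, 1.12 and 1.04 FPKM in the nM libraries (log2 difference -0.76). Detection in nM was complete, and the M library of ZT9 lay inside the nM range. PGR, the nuclear receptor of progesterone, was listed at 0 in all 6 M libraries and had 0.332, 0, 0.193, 0.364, 0.228 and 0.202 FPKM in the nM libraries. It was listed at 0 in the nM library of ZT5, where the states met. PLXNB1, a plexin receptor of semaphorins, had 0.0642, 0, 0.0583, 0.0457, 0 and 0 FPKM in the M libraries and 0.0321, 0.22, 0.412, 0.364, 0.441 and 0.185 FPKM in the nM libraries. No M value reached 0.1 FPKM, and the nM library of ZT1 was as low as the M libraries. COLEC12, a scavenger receptor of the collectin family, had 0.237, 0, 0.0971, 0.294, 0 and 0 FPKM in the M libraries and 0.23, 0.249, 0.349, 0.689, 0.276 and 0.138 FPKM in the nM libraries. The M values at ZT1 and ZT13 were inside the nM range. PCDH11X, a protocadherin of cell adhesion, stayed at 0 to 0.0835 FPKM in the M libraries and had 0.0453, 0.258, 0.178, 1.25, 0.188 and 0.126 FPKM in the nM libraries. At ZT13 the nM value was far above the other 5.

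A channel and a transporter were among the named nM-only genes. KCNQ5, a voltage-gated potassium channel, had 0.0313, 0, 0, 0.109, 0 and 0 FPKM in the M libraries and 0.158, 0.226, 0.367, 0.332, 0.242 and 0.138 FPKM in the nM libraries, with every nM value above every M value. It was the only nM-only gene of 20 matched ion channel genes, beside CACNA1B in the M direction. Of all genes 0.432% were nM-only and 0.525% M-only. Only 20 of the 106 channel names listed were matched, all through the study's own lists, so nothing is read from these counts. SLC5A8, a sodium-coupled transporter of lactate and other monocarboxylates, had 0.125, 0.216, 0.0712, 0.0643, 0 and 0.0876 FPKM in the M libraries and 0.216, 0.835, 0, 0.364, 0.46 and 0.351 FPKM in the nM libraries. The highest nM value, at ZT5, coincided with the highest M value, and the nM library of ZT9 was listed at 0.

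ELAVL4, an RNA-binding protein that stabilizes messages in neurons, was the only member among the 3 matched neuron markers. Of all genes 0.432% were nM-only, and nothing is read from this count. ELAVL4 was listed at 0 in all 6 M libraries and had 0, 0.415, 0.401, 0.399, 0.253 and 0.208 FPKM in the nM libraries. MAP2, a microtubule protein of dendrites and a neuron marker that was not a member, had a median of 0.0590 FPKM over the M libraries and 0.345 FPKM over the nM libraries, and the part of other cells in the nM-only genes was not tested. SYT13, a synaptotagmin of vesicle trafficking, had 0.272, 0.0882, 0, 0.249, 0 and 0 FPKM in the M libraries and 0.64, 0.49, 1.27, 1.62, 0.286 and 0.668 FPKM in the nM libraries. All 6 nM values exceeded all 6 M values, the nearest being 0.286 and 0.272 FPKM. UNC119, a chaperone that carries lipid-anchored proteins and is known from photoreceptors, had 0.146, 0, 0, 0, 0 and 0 FPKM in the M libraries and 0.609, 0.483, 0.509, 0, 0.389 and 0.515 FPKM in the nM libraries. The nM library of ZT13 was listed at 0 like 5 of the M libraries.

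The products of 3 further named nM-only genes are known from the extracellular matrix, a grouping made after their values were seen. ADAMTS12, a secreted metalloproteinase of the matrix, had 0.0924, 0, 0.0577, 0, 0 and 0 FPKM in the M libraries and 0.142, 0.316, 0.248, 0.19, 0.12 and 0.103 FPKM in the nM libraries. It was the only gene above 0.1 FPKM in all 6 nM and no M library, although the gap was between 0.0924 and 0.103 FPKM. LAMA2, the laminin alpha chain of muscle and nerve basement membrane, had 0.205, 0, 0, 0, 0 and 0 FPKM in the M libraries and 0.457, 0.371, 0.224, 0.32, 0.169 and 0.073 FPKM in the nM libraries. At ZT1 the M value was within the nM range and the other 5 were listed at 0. ADAMTSL1-2, of a family of matrix proteins related to these proteases, had 0.0419, 0, 0, 0.198, 0.524 and 0.0833 FPKM in the M libraries and 0.127, 0.073, 0.257, 0.541, 0.514 and 0.16 FPKM in the nM libraries. Its second highest value was in the M library of ZT17, so the states overlapped. The M libraries of ZT1, ZT5 and ZT9 lay below every nM library.

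Proteins of the actin cytoskeleton and of cilia were also present. SYNPO2, an actin-bundling protein of muscle, had 0.263, 0, 0.237, 0.0596, 0 and 0.0687 FPKM in the M libraries and 0.987, 0.593, 0.933, 0.57, 0.13 and 0 FPKM in the nM libraries. The nM libraries of ZT17 and ZT21 lay in the M range. AFAP1, an actin filament linker, had 0.0359, 0.0403, 0.146, 0.60, 0 and 0.0608 FPKM in the M libraries and 0.263, 0.218, 0.358, 0.489, 0.222 and 0.151 FPKM in the nM libraries. The highest value of all was in the M library of ZT13. FHOD3, a formin of the heart sarcomere, stood at 0 to 0.139 FPKM in the M libraries and had 0.531, 0.1001, 1.57, 0.101, 0.133 and 0.113 FPKM in the nM libraries. In the nM libraries of ZT5 and ZT13 it only just passed the detection level. AK7, an adenylate kinase of motile cilia, had 0, 0, 0.359, 0.348, 0 and 0 FPKM in the M libraries and 0, 0.264, 1.15, 1.1, 2.19 and 4.4 FPKM in the nM libraries (log2 difference -0.96). It was listed at 0 in the nM library of ZT1 and highest in that of ZT21.

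Other named nM-only genes encode kinases, a phosphatase or scaffolds. PTPN13, a tyrosine phosphatase, had 0.201, 0.0883, 0.070, 0.13, 0.0724 and 0.0305 FPKM in the M libraries and 0.758, 0.381, 0.451, 0.298, 0.0806 and 0.294 FPKM in the nM libraries. It was above 0 in all 12 libraries, and the nM library of ZT17 was below the detection level. MAGI2, a scaffold of cell junctions, had 0.0551, 0.0589, 0.215, 0.0789, 0.129 and 0.0492 FPKM in the M libraries and 0.558, 0.211, 0.319, 0.123, 0.336 and 0.196 FPKM in the nM libraries. The M libraries of ZT9 and ZT17 lay in the nM range. CAMKK1, a kinase that activates calmodulin-dependent kinases, had 0.393, 0.0845, 0.0878, 0, 0 and 0.116 FPKM in the M libraries and 0.114, 0.162, 0.274, 0.254, 1.88 and 0 FPKM in the nM libraries. At ZT17 the nM value was well above the rest and that of ZT21 was at 0. DACT2, a modulator of Wnt and TGF-beta signaling, had 0, 0, 0.128, 2.57, 0 and 0 FPKM in the M libraries and 0.186, 0.484, 0.335, 0.225, 0 and 0.102 FPKM in the nM libraries. The difference of state means was 0.06, the only one above 0 among the 79, and -0.24 without the M library of ZT13. DGKB, a diacylglycerol kinase, had at most 0.128 FPKM in the M libraries and at most 0.325 FPKM in the nM libraries. The pseudokinase gene PRAGMIN had at most 0.193 FPKM in the M libraries and reached 1.02 FPKM in the nM library of ZT1.

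Further nM-only genes were spread over a range of levels. KIAA1772 had 0.514, 0, 0, 0.398, 0 and 0 FPKM in the M libraries and 4.96, 0.432, 0.696, 0, 2.65 and 7.85 FPKM in the nM libraries. Its M values lay inside the nM range, and the nM library of ZT13 was listed at 0. PLEKHN1, whose protein carries a pleckstrin homology domain, had 1.81, 0, 0.274, 0, 0 and 0 FPKM in the M libraries and 0.414, 0.143, 1.32, 1.77, 3.0 and 2.13 FPKM in the nM libraries. Its M value at ZT1 exceeded 4 of the 6 nM libraries. CCDC102B, of centrosomes, had 0.259, 0, 0.372, 0, 0 and 0 FPKM in the M libraries and 0.472, 0.336, 1.48, 0.905, 1.79 and 0.535 FPKM in the nM libraries. One M value, at ZT9, was inside the nM range. KIAA0895 had 0.566, 0, 0.666, 0.0924, 0 and 0 FPKM in the M libraries and 0.116, 0.0517, 0.261, 0.515, 2.2 and 1.07 FPKM in the nM libraries, where the dark libraries of ZT17 and ZT21 were the highest. A further 5 named nM-only genes (ZFHX4, a zinc finger homeobox factor, MGAT4C, a glycosyltransferase of N-glycans, DIP2C, C4orf18 and C20orf26) stayed at or below 0.722 FPKM in every library. Without a symbol, ENSTGUG00000005701 was highest, with 0, 0, 4.15, 0, 0 and 0 FPKM in the M libraries against 4.53, 20.8, 4.48, 29.6, 5.09 and 5.54 FPKM in the nM libraries, which did not overlap. ENSTGUG00000012130 had 0, 0, 0, 0.929, 0 and 1.0 FPKM in the M libraries against 1.82, 0.591, 3.61, 5.89, 5.04 and 5.98 FPKM in the nM libraries, where only ZT5 fell below the highest M value. Of the nM-only genes described, those other than the first 10 by level, ELAVL4 and KCNQ5 were named after their values were seen.

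The limits of the rule cut through a run of genes with similar detection. On the M side 45 genes met it at its limit, 5 M libraries against 2 nM libraries, with IL8-2, MYL3 and ARSD-2 the highest of those with a symbol. A further 246 missed it by 1 library. Of these, 141 were at 5 M against 3 nM or 4 M against 2 nM libraries, and the highest of the 141 with a symbol were HSD3B7, an enzyme of bile acid synthesis, CDCA8, a subunit of the chromosomal passenger complex, and UNG, a DNA repair enzyme. HSD3B7 had 5.28, 2.77, 0, 0, 1.29 and 1.83 FPKM in the M libraries and 2.98, 0, 0, 0, 0.445 and 0 FPKM in the nM libraries. On the nM side 37 genes met the rule at its limit, with KIAA1772, AK7 and SYNPO2 the highest with a symbol, and 150 missed it by 1 library. Of these, 86 were at 5 nM against 3 M or 4 nM against 2 M libraries, the highest with a symbol being ALB, the small heat shock gene HSPB3 and the channel gene PANX1. HSPB3 had 0.952, 0.765, 0, 0, 0 and 0.582 FPKM in the M libraries and 0, 0.241, 1.40, 1.39, 0.841 and 1.35 FPKM in the nM libraries. ALB would have entered the nM-only genes with 1 more M library listed at 0. On the M side COX19 and IHH also missed it by 1 library, at a median of 20.0 and 1.55 FPKM over the M libraries, and were named after their values were seen. COX19, an assembly factor of cytochrome c oxidase, had 7.48, 21.7, 20.3, 19.6, 142 and 16.9 FPKM in the M libraries and 8.72, 0, 3.38, 0, 0 and 4.78 FPKM in the nM libraries. IHH, the hedgehog ligand, had 2.55, 2.10, 0.996, 0.914, 3.31 and 0.887 FPKM in the M libraries and 0.109, 0.830, 0, 0, 0.0947 and 0.132 FPKM in the nM libraries. Each was detected in all 6 M and 3 nM libraries, and every M library lay above every nM library in IHH and, but for the M library of ZT1, in COX19.

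Several of the gene lists held no members. None of 42 matched genes of lipid and bile acid enzymes and transport, 15 circadian clock genes, 23 genes of the mitochondrial respiratory chain, 22 cytosolic ribosomal protein genes and 18 G protein-coupled receptor genes was M-only or nM-only. At 0.525% and 0.432% of the table few members could fall in lists of this size, and nothing is read from these zeros. Of these, 40 lipid genes and 13 clock genes exceeded 0.1 FPKM in all 12 libraries. The marker lists of macrophages (5 matched), lymphocytes (5), endothelium (5), stellate cells and fibroblasts (9) and red blood cells (3) also held none. The red blood cell markers summed to 23.5 to 189 FPKM in the M libraries and 12.6 to 41.2 FPKM in the nM libraries, and their part in the M-only genes was not tested. Of the 12 matched genes of the homeobox and forkhead list only CDX2 was a member, and ZFHX4 was not on that list. Nothing is read from this count either.

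The rule did not use time of day, so dark and light could be compared within a state. It does bar genes undetected in both dark libraries of their state. Symbols, however, came in part from the study's list of cyclic genes, which was drawn from these same libraries. The 2 dark libraries (ZT17 and ZT21) were compared with the 4 light libraries (ZT1 to ZT13) of each state by limma on log2(FPKM + 1), with Benjamini-Hochberg adjustment over all genes detected in 5 or more libraries of the state. At an FDR below 0.1 limma called 0 of 9801 genes in M, with 895 (9.13%) at an unadjusted p under 0.05, and 0 of 9703 genes in nM, with 486 (5.01%). A 24-h cosine in place of dark and light also called 0 in each state, with 221 and 815 genes at an unadjusted p under 0.05. Of the M-only genes 3 of 96 and of the nM-only genes 6 of 79 had an unadjusted p under 0.05. Neither share was tested against these backgrounds. With only 2 dark libraries a state, 0 calls do not show that members were steady over the day. The study itself called cyclic genes in these libraries by JTK, a rank-based test. Its cyclic list, over both states, named 12 M-only and 24 nM-only genes that its list of differential genes did not. A further 1 and 4 were on both lists.

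No member was called between dark and light, and those named here only had an unadjusted p under 0.05 from limma. As 9.13% of all genes tested in M and 5.01% in nM had one too, no difference is read from them. In nM, KIAA0895 had a dark minus light difference of 1.07 on the log2(FPKM + 1) scale (standard error 0.32, adjusted p = 0.887 from limma), with both dark libraries above all 4 light ones. The difference was 1.42 for AK7 (standard error 0.43) and 0.98 for PLEKHN1 (standard error 0.42), in both cases with the dark libraries above the light ones and the same adjusted p. SYNPO2 had a difference of -0.73 (standard error 0.28), with both dark nM libraries below the light ones. Each of these named nM genes owed its symbol to the study's list of cyclic genes. The nM-only genes without a symbol at an unadjusted p under 0.05 were ENSTGUG00000007405 and ENSTGUG00000013531. Their differences were 0.998 (standard error 0.319) and -2.33 (standard error 0.989). In M the 3 genes at an unadjusted p under 0.05 had no symbol (ENSTGUG00000007012, ENSTGUG00000007038 and ENSTGUG00000006489), with dark minus light differences of 1.05, 1.06 and 1.49 and an adjusted p of 0.41 each from limma.

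Over the M-only genes 65 of 96 had a dark mean above the light mean, with a median difference of 0.26 against -0.07 over all genes tested. Without the M library of ZT17 these became 45 of 96 and -0.03. With every library rescaled to the same total they became 44 of 96 and -0.03, against -0.57 over all genes tested. Over the nM-only genes 46 of 79 had a dark mean above the light mean, with a median of 0.03 against 0.06 over all genes tested. Without the nM library of ZT17 these became 30 of 79 and -0.09, and the median was also below 0 without those of ZT5 (39 of 79) and ZT13 (38 of 79). Leaving out the M library of ZT21, so that ZT17 alone stood for the dark and was assumed to vary like the others, raised the M calls to 5431 genes, 33 of them members.

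The number of members held across detection levels better than their identity did. At 0.05, 0.2, 0.5 and 1 FPKM the M-only genes numbered 99, 96, 83 and 98, of which 84, 59, 29 and 18 were among the 96. The nM-only genes numbered 52, 95, 108 and 147, of which 42, 41, 12 and 6 were among the 79. With at most 1 library of the other state above 0.1 FPKM, 33 and 24 genes remained. Rescaling each library to the same total FPKM gave 93 and 72 genes (86 and 60 of them members), and rescaling to the same median 98 and 70 (95 and 70 of them members). Under the 4 other detection levels and both scalings, among genes with a symbol, SNORD16, IL8-2, VAMP2, SCARNA15 and SNORA63 were members throughout.

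**Figure D5:**
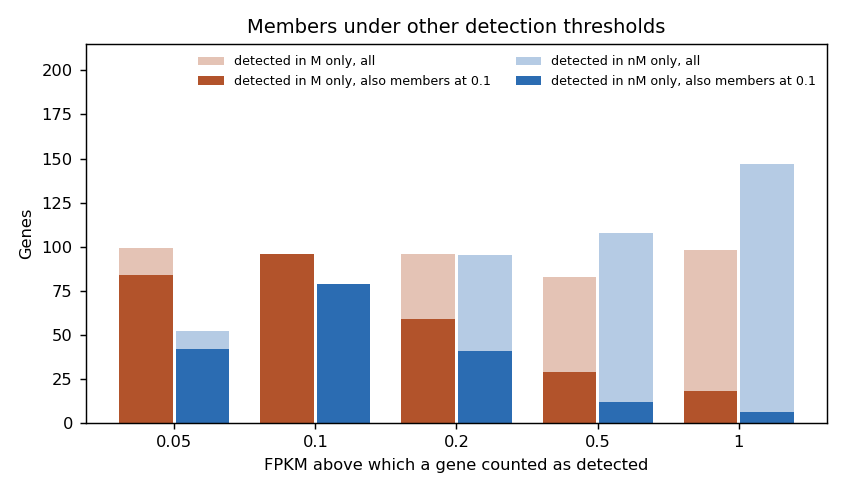
Number of genes detected in one state only (vertical axis) when detection is set at 0.05, 0.1, 0.2, 0.5 or 1 FPKM (horizontal axis), M-only in orange left of nM-only in blue. Dark bars are the members at 0.1 FPKM, falling to 18 of 98 M-only and 6 of 147 nM-only genes at 1 FPKM.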

How the data were processed

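Liver RNA of 12 birds (6 M, 6 nM) was sequenced as 100-base single-end reads from poly(A)-selected libraries. After trimming and the removal of ribosomal reads with Bowtie2 2.0.2, the authors mapped reads by STAR against the genome of the zebra finch, and Cufflinks 2.2.1 gave each gene's FPKM. The deposited FPKM table (18284 genes) was used as it stood. The deposited log2 values of 11246 genes equalled log2(FPKM + 1) within 1.03e-07 in all 134952 cases, and the per-sample files repeat them and were not used. Per-sample columns left out numbered 0. The deposited files hold no read counts, so the number of reads behind a value is unknown. The study's table of reads and base quality per library was used only to order libraries.

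The members, lists and tests were chosen with earlier results of these data known. Symbols were taken from the study's gene lists, and a few named genes are not reported here. In each direction the text names the 10 members with a symbol and the highest median, those in the gene lists, the 2 highest without a symbol, and 3 genes just inside and outside the rule. Others are said to be named after their values were seen. None with a symbol was above 0.1 FPKM in all 6 libraries of a state and at 0 in all 6 of the other. Dark and light were compared with limma 3.58.1 (R 4.3.3) on log2(FPKM + 1), at the study's thresholds (FDR below 0.1, absolute log2 fold change over 0.1). The fit was also run on simulated data, with each gene's spread capped at the median spread and no outlying library. Nothing is read from that run for these libraries. Alternatives were other detection levels, library numbers, scalings, pseudocounts, a 24-h cosine and each library left out.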

Additional observations from a re-analysis of the deposited data

Results flagged for a closer look

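Values far from the other 5 libraries of a state were looked for by Dixon's test (gap to the nearest value over the whole range). This was done for 58 named genes and for the numbers of genes and of members detected. For normally distributed values about 1 in 20 groups is singled out in this way by chance. Whether these FPKM values are so distributed was not tested, so the share by chance may be higher here. The M library of ZT17 had 9533 genes above 0.1 FPKM, the next lowest M library 10439. The same library was the highest M library by such a gap for VAMP2 (3.98 FPKM, next 1.86), TMPRSS12 (9.50 FPKM, next 0.405) and RASL12 (1.53 FPKM, next 0.332). In nM libraries of ZT17, SNORA63 reached 85.4 FPKM (next 44.9) and CAMKK1 1.88 FPKM (next 0.274). UNC119 was listed at 0 in the nM library of ZT13, where the next lowest nM value was 0.389 FPKM, and PCDH11X was at 1.25 FPKM there (next 0.258). PRAGMIN had 1.02 FPKM in the nM library of ZT1 (next 0.209) and FHOD3 1.57 FPKM in that of ZT9 (next 0.531).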

How the results depend on the processing

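The M-only count (96) stayed within 1.5 times its value at detection levels from 0.05 to 1 FPKM and under both scalings, and the nM-only count (79) did so except at 0.05 FPKM (52) and 1 FPKM (147). Stricter library numbers cut them by construction, to 33 M-only and 24 nM-only genes with at most 1 library of the other state and to 1 and 1 for 6 libraries against 0. With 1 library left out and 1 missing library still allowed, the M-only count ran from 115 to 178 and the nM-only count from 95 to 143. With the numbers of the rule unchanged (added once the data had been seen), the M-only count was 39, 32, 32, 37, 46 and 40 without each M library in order of time, and 176, 178, 154, 125, 149 and 139 without each nM library. The nM-only count was then 143, 115, 136, 121, 95 and 128 without each M library, and 35, 29, 25, 41, 30 and 34 without each nM library. Calls between dark and light stayed at 0 in both states with a pseudocount of 0.1, equal totals and a 24-h cosine, and became 3 in M and 1 in nM without a filter on low values. With 1 library left out they ran from 0 to 5431 in M and from 0 to 1 in nM, the highest in each case without the library of ZT21. Of 812 alternative values of the 58 named differences between states, 752 moved by less than the spread between libraries and 55 moved further, all under a pseudocount of 0.1 and all to a larger size. The sign turned in 5, for DNAI1 (0.02) without the nM libraries of ZT1 (-0.0167), ZT5 (-0.0167) and ZT21 (-0.00226), and for DACT2 (0.06) with a pseudocount of 0.1 (-0.49) and without the M library of ZT13 (-0.24). With 1 library left out DNAI1 ran from -0.0167 to 0.0745 and DACT2 from -0.24 to 0.12. DACT2 lost its highest M value without that library, and for the others the cause was not tested. Libraries could be paired by time, but no paired analysis was done, since the comparison between states is a description with no test. A difference of state means is the same with libraries so paired. The number of reads behind each FPKM value is not in the files, so what depth limits was not computed.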
